A study of Homo sapiens with 5 samples.

Results

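The genes described here are the mitotic kinase genes *PLK1*, *PLK2*, *PLK4*, *AURKA*, *AURKB* and *NEK2* and the spindle checkpoint genes *BUB1*, *BUB1B*, *TTK* and *MAD2L1*. They are 10 of the 20033 protein-coding genes of GENCODE 44 on chromosomes 1 to 22, X and Y of GRCh38, and the rule that selects them is a list of names, with no threshold on a measured value. For each gene, every peak of the MYC and HSF1 lists was taken from 5 kb upstream of the gene to its end. The question was whether MYC and HSF1, which the study examined together in ovarian cancer, each had peaks at these genes, and whether the replicates of a factor gave the same answer.

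In CUT&RUN, an antibody against a DNA-bound protein guides a nuclease to its sites, and the fragments cut loose there are sequenced. All libraries came from untreated, proliferating OVCAR8 cells, an established human ovarian carcinoma line that the study chose because both MYC and HSF1 are amplified in it, so the results are those of 1 line. Each reaction held 500000 cells fixed for 1 minute in 1% formaldehyde. There were 2 MYC libraries, 2 HSF1 libraries and 1 IgG control, which served as background for all 4 peak lists and has no list of its own. The sources do not say whether the replicates were separate cultures, so the spread between them may be technical. The antibody libraries had 8265647 to 10084407 fragments left after duplicates were reduced to 1 copy. MYC replicate 1 had 25646 peaks from the smallest library, MYC replicate 2 had 13290 from the largest, and the HSF1 lists had 6477 and 4492. MYC peaks were called at a p-value of 1e-10 and HSF1 peaks at 1e-04, so a MYC peak had to pass the stricter limit. A gene without a peak fell short of these thresholds at this depth, and binding there was not shown to be absent. The lists hold no expression, so the cell type label could not be checked against markers.

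Entry into mitosis and the separation of chromosomes are run by protein kinases. PLK1 and Aurora A (*AURKA*) mature the centrosomes and build the spindle, NEK2 separates the centrosomes, and PLK4 is the kinase that starts centriole duplication. PLK2 is a polo-like kinase better known for induction by growth factors and cell stress than for a role in mitosis. Aurora B (*AURKB*) corrects faulty attachments at the kinetochore. The spindle checkpoint holds cells in metaphase until every chromosome is attached: MPS1 (*TTK*) and BUB1 recruit its parts to kinetochores, and MAD2 (*MAD2L1*) and BUBR1 (*BUB1B*) inhibit the anaphase promoting complex. The promoters of such genes are known for CCAAT boxes, bound by NF-Y, and for the cell cycle genes homology region (CHR), TTTGAA or TTCGAA, bound by the DREAM complex. MYC with MAX prefers the E-box CACGTG and tolerates CACGCG and CATGTG. HSF1 binds heat shock elements, runs of GAA units in alternating orientation.

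The sequence upstream of *PLK1*, the gene whose product the study inhibited, is shown because it holds an E-box, a CCAAT box and a CHR, from distal to proximal and in capitals. It is the plus strand of chr16:23678639-23678868, from 250 to 21 bases before the start site, from RefSeq on GRCh38.p14.
PLK1 upstream: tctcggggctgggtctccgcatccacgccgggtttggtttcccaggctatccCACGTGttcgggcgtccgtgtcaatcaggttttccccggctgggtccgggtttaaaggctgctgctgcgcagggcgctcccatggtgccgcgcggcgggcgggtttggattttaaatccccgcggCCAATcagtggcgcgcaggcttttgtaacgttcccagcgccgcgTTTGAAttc

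The E-box of *PLK1* lay 198 bp upstream of the start site and inside the MYC peak of replicate 1. The CCAAT box, 73 bp upstream, and the CHR, 29 bp upstream, lay outside it, although the peak ended within the CCAAT box.

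The next sequences carry the MYC and HSF1 motifs under peaks of *BUB1B* and *PLK2*, with the motif in capitals. The *BUB1B* stretch is the plus strand of chr15:40161411-40161471, the *PLK2* heat shock element is on the minus strand of chr5:58460902-58460962, and both were read from GRCh38. The *PLK2* stretch with CACGCG is the minus strand of chr5:58460177-58460236, from RefSeq.
BUB1B E-box: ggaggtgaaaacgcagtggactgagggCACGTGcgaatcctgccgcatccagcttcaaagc
PLK2 heat shock element: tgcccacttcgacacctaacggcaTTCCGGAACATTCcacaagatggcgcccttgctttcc
PLK2 CACGCG: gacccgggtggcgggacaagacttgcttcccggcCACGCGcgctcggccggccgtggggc

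The last set shows the letters of the CHR at 4 further genes and the paired CCAAT boxes upstream of *NEK2* and *BUB1*. Letters are again in capitals and on the strand of the gene, from RefSeq. The CHR stretches are chr15:40161034-40161063 on the plus strand for *BUB1B*, chr2:110678045-110678074 on the minus strand for *BUB1*, chr4:120066807-120066836 on the minus strand for *MAD2L1* and chr4:127880913-127880942 on the plus strand for *PLK4*, where the motif reads on the opposite strand. All 30 bases of the *MAD2L1* and *PLK4* stretches, 19 of *BUB1* and 0 of *BUB1B* are annotated as untranslated region. The *PLK4* letters lie outside both of its MYC peaks. The CCAAT stretches are chr1:211675631-211675711 for *NEK2* and chr2:110678104-110678163 for *BUB1*, both on the minus strand.
BUB1B CHR: gggaccgttaaaTTTGAAacttggcggcta
BUB1 CHR: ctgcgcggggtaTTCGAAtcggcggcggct
MAD2L1 CHR: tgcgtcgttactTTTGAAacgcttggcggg
PLK4 CHR: ggcaagcggcgggagattTTCAAAatggga
NEK2 CCAAT: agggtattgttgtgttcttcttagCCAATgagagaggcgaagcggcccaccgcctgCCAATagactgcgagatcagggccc
BUB1 CCAAT: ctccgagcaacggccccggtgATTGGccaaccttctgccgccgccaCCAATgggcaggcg

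MYC peaks were found at 9 of the 10 genes in replicate 1 and at 7 in replicate 2, and HSF1 peaks at 2 genes in each replicate. The MYC lists gave 8 ± 1.41 genes (SD, n = 2) and the HSF1 lists 2 ± 0 (SD, n = 2), a difference of 6 genes with no overlap between the factors. The exact permutation test over the 4 lists gave a two-sided p of 0.333, the smallest value that 2 lists against 2 allow. Among all protein-coding genes, 63.3% had a peak in MYC replicate 1, 46.2% in MYC replicate 2, 16.5% in HSF1 replicate 1 and 12.3% in HSF1 replicate 2. The MYC lists thus reached more of all genes as well. With all lists held to 1e-10 the difference was 7 genes, and the shares of all genes at that limit were not counted.

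*AURKA*, *AURKB*, *BUB1B*, *MAD2L1*, *PLK2*, *PLK4* and *TTK* had a MYC peak in both lists, 7 of 10 genes where the share of all protein-coding genes was 45.4%. *PLK1* and *BUB1* had a MYC peak in replicate 1 only, and *NEK2* had none. *PLK2* was the 1 gene with an HSF1 peak in both HSF1 lists, against 7.81% of all genes. *AURKA* had an HSF1 peak in replicate 1 only and *BUB1B* in replicate 2 only. The shares of the 10 genes were not tested against those of all genes, since the genes are a named list and not a sample.

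**Figure D1:**
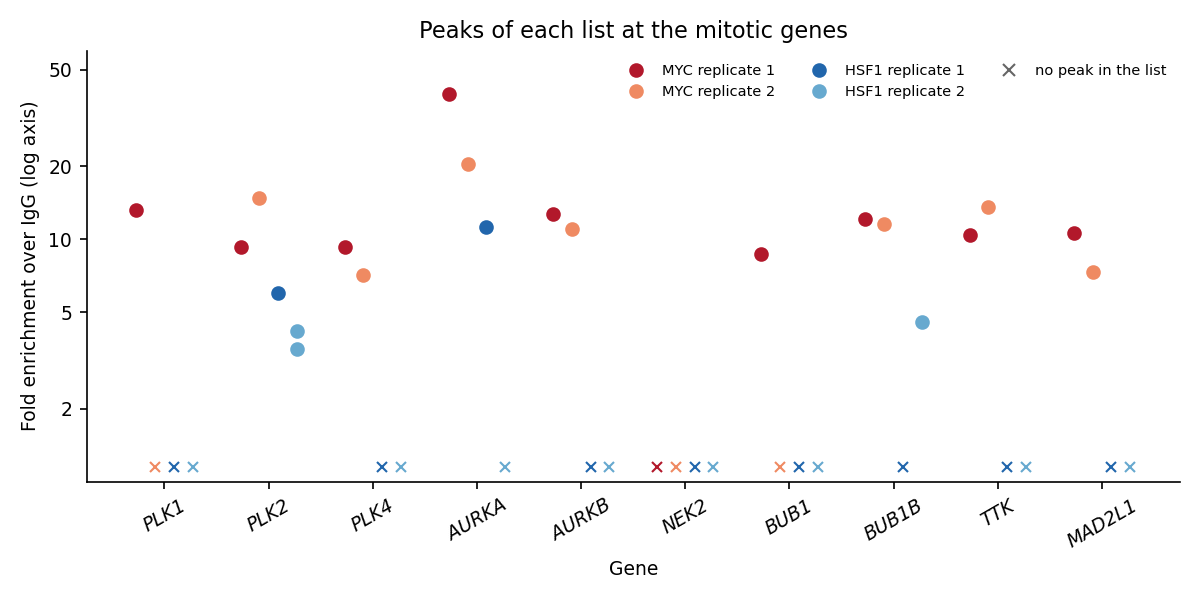
Fold enrichment over IgG (log axis) of every peak from 5 kb upstream to the end of each gene, with 1 point per peak and a cross near the axis where a list had no peak. MYC points (red and orange) stand at 9 genes and HSF1 points (blue) at *PLK2*, *AURKA* and *BUB1B*, and *AURKA* has the highest point of each factor.

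In all, 21 peaks fell in the gene windows, 16 of MYC and 5 of HSF1. Each of the 21 had its summit within 1 kb of the start site of the MANE Select transcript, the reference isoform, so no peak lay farther inside a gene body. The counts for this promoter window were therefore those of the whole window. At promoters, the background was lower: 36.6% of all protein-coding genes had a MYC peak in both lists, 14.3% in replicate 1 only and 47.9% in neither. An HSF1 peak stood at the promoter of 2.59% of all genes in both lists. In at least 1 list it was 9.42% of all genes and 3 of the 10. Over the whole gene window, the same 3 of 10 stood against 21.1% of all genes. MYC peaks covered the start site itself in 12 of 16 cases and HSF1 peaks in 0 of 5.

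**Figure D2:**
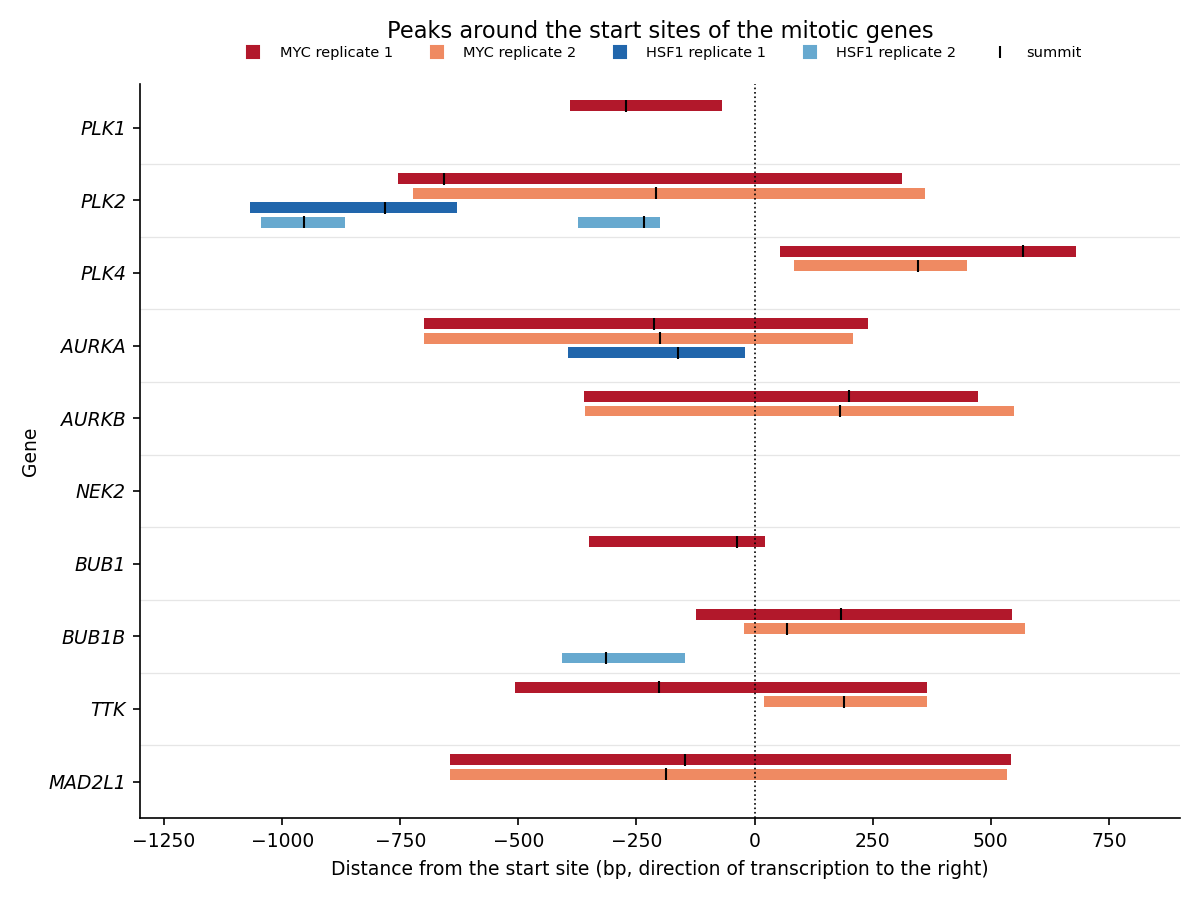
Position of the peaks relative to the start site (bp, transcription to the right), with 1 row per gene, 1 bar per peak and a black tick at the summit. MYC bars (red and orange) mostly span the start site, HSF1 bars (blue) all lie upstream of it, and the *NEK2* row is empty.

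*PLK1*, at chr16:23677656-23690367 on the plus strand, had 1 MYC peak, in replicate 1, at chr16:23678499-23678818. Its fold enrichment over IgG was 13.2, with a pileup of 26 fragments and a −log10 p-value of 28.0. Fold enrichment is the ratio of the pileup of fragments to the local background, with 1 added to each. The summit was 273 bp upstream of the start site. The peak was mid-ranked in its list: 57.8% of the peaks of MYC replicate 1 had a lower fold enrichment. In MYC replicate 2 the nearest peak was 37203 bp from the start site, and the nearest HSF1 peaks were 121232 bp and 121334 bp away.

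A peak of replicate 1 with no partner in replicate 2 was common at this height. Of the 2329 peaks of MYC replicate 1 with a −log10 p-value within 2 of that at *PLK1*, 1035 overlapped a peak of replicate 2, or 44.4% (95% Wilson interval 42.4 to 46.5, for counting error only). Over the whole list the share was 46.9%, 12026 of 25623 peaks on the main chromosomes. This comparison was chosen after the values at *PLK1* were seen.

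*PLK2*, at chr5:58453982-58460139 on the minus strand, was the gene with most peaks. MYC replicate 1 had a peak at chr5:58459775-58460840 with a fold enrichment of 9.32, and MYC replicate 2 had one at chr5:58459726-58460810 with 14.8. Both covered the start site and shared 1036 bp, but their summits, 657 bp and 208 bp upstream, were 449 bp apart. HSF1 replicate 1 had 1 peak at chr5:58460716-58461155, with a fold enrichment of 6.02, a pileup of 18 and a −log10 p-value of 11.6. HSF1 replicate 2 had 2 narrower and weaker peaks, at chr5:58460287-58460459 with a fold enrichment of 3.54 and at chr5:58460955-58461131 with 4.2. All 3 HSF1 peaks stood within 1 kb upstream of the start site by their summits, and they exceeded 70.3%, 5.62% and 23.3% of the peaks of their lists.

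The HSF1 peaks of *PLK2* differed in how they met the MYC peaks. The HSF1 peak of replicate 1 shared 125 bp with the MYC peak of replicate 1 and 95 bp with that of replicate 2, less than 50% of its width of 440 bp. In replicate 2, the proximal HSF1 peak of 173 bp lay wholly within both MYC peaks, with its summit 27 bp from the MYC summit of the same replicate number. The distal one lay 114 bp and 144 bp beyond the MYC peaks.

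*PLK4*, at chr4:127880893-127899224 on the plus strand, had its MYC peaks downstream of the start site. Replicate 1 had a peak at chr4:127880947-127881572 with a fold enrichment of 9.28, and replicate 2 had one at chr4:127880977-127881341 with 7.09. Both summits lay in intron 1, 569 bp and 345 bp from the start site. These were low in their lists, above 23.7% and 10.3% of the other peaks. The nearest HSF1 peak was 84257 bp from the start site.

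*AURKA*, at chr20:56369389-56392337 on the minus strand, had the peaks of highest fold enrichment and lowest p-value among the 10 genes for both factors. By pileup, *PLK2* was higher in MYC replicate 2, at 43 against 34, and in HSF1 replicate 1, at 18 against 17. The MYC peak of replicate 1, at chr20:56391975-56392914, had a fold enrichment of 39.8, a pileup of 61 and a −log10 p-value of 101, and exceeded 99.3% of its list. The MYC peak of replicate 2, at chr20:56392008-56392915, had a fold enrichment of 20.4 and exceeded 93.5% of its list. The summits were 12 bp apart, 213 bp and 201 bp upstream of the start site. The HSF1 peak of replicate 1, at chr20:56392236-56392609, had a fold enrichment of 11.2, exceeded 95.4% of its list and lay with all of its 374 bp inside both MYC peaks, with its summit 51 bp and 39 bp from theirs. The nearest peak of HSF1 replicate 2 was 830427 bp away. The replicates of HSF1 therefore differed at *AURKA*, and the overlap with MYC there rests on HSF1 replicate 1.

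The promoter of *AURKA* is shared. *CSTF1*, which encodes a subunit of the cleavage stimulation factor of mRNA 3′ end formation, starts 430 bp away on the opposite strand, and the summits of all 3 peaks lay between the start sites of *AURKA* and *CSTF1*. A peak between such start sites cannot be assigned to one of the genes from these data.

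*AURKB*, at chr17:8204733-8210600 on the minus strand, had MYC peaks of like shape in both lists. They were at chr17:8210104-8210937 with a fold enrichment of 12.7 and at chr17:8210026-8210935 with 11.1, and shared 832 bp. The summits were 18 bp apart in intron 1, 199 bp and 181 bp past the start site. The nearest HSF1 peaks were 53958 bp and 71098 bp away.

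*NEK2*, at chr1:211658657-211675630 on the minus strand, had no peak in any of the 4 lists. The nearest MYC peaks were 95925 bp and 95999 bp from its start site and the nearest HSF1 peaks 792704 bp and 792722 bp. A divergent lncRNA, *NEK2-DT*, starts 128 bp away, so its promoter was without a called peak as well.

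*BUB1*, at chr2:110637528-110678063 on the minus strand, had 1 MYC peak, in replicate 1, at chr2:110678042-110678413. Its fold enrichment was 8.69, with a pileup of 27 and a −log10 p-value of 20.7, above 18% of its list. The summit was 37 bp upstream of the start site, the closest of all 21 peaks. An unnamed lncRNA starts 142 bp from *BUB1* on the opposite strand, and the summit lay between these start sites. The nearest peak of MYC replicate 2 was 202750 bp away. Of the 3685 peaks of replicate 1 within 2 of this −log10 p-value, 27.6% overlapped a peak of replicate 2 (95% Wilson interval 26.2 to 29.1).

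*BUB1B*, at chr15:40161023-40221123 on the plus strand, had MYC peaks over the start site in both lists and a separate HSF1 peak upstream. The MYC peaks, at chr15:40160946-40161612 and chr15:40161047-40161640, had fold enrichments of 12.2 and 11.5, with summits in exon 1, 183 bp and 68 bp past the start site. HSF1 replicate 2 had a peak at chr15:40160661-40160921 with a fold enrichment of 4.56, a pileup of 6 and a −log10 p-value of 5.81. It ended 24 bp before the MYC peak of replicate 1 and 125 bp before that of replicate 2, so the factors did not overlap at *BUB1B*. The nearest peak of HSF1 replicate 1 was 403924 bp away.

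*TTK*, at chr6:80003887-80042527 on the plus strand, had MYC peaks whose summits lay on opposite sides of the start site. Replicate 1 had a peak at chr6:80004142-80005014 with a fold enrichment of 10.4 and a summit 202 bp upstream. Replicate 2 had one at chr6:80004669-80005013 with 13.6 and a summit 190 bp downstream, in intron 1. The shorter peak lay wholly within the longer one, with summits 392 bp apart. The nearest HSF1 peak was 429249 bp away.

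*MAD2L1*, at chr4:120055623-120066858 on the minus strand, had the widest peaks of the set. They were at chr4:120066306-120067493 with a fold enrichment of 10.7 and at chr4:120066315-120067493 with 7.30, 1188 bp and 1179 bp wide, with summits 40 bp apart, 148 bp and 188 bp upstream. Their pileups were 57 and 34, so that the gene ranked second to *AURKA* by mean pileup and sixth of 7 by mean fold enrichment. The summits were nearer to the start site of the divergent lncRNA *MAD2L1-DT*, 56 bp from that of *MAD2L1*. HSF1 peaks were 854316 bp or more away.

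Among the 7 genes with MYC peaks in both lists, *AURKA* had the highest fold enrichment and *PLK4* the lowest, on average and in each list. The mean was 30.1 ± 13.7 (SD, n = 2 lists) at *AURKA*, above 96.6% of the 7327 protein-coding genes with MYC promoter peaks in both lists. It was 12.1 ± 3.90 at *PLK2*, 12 ± 2.31 at *TTK*, 11.9 ± 1.16 at *AURKB* and 11.9 ± 0.469 at *BUB1B* (SD, n = 2 lists each), which differ by less than the spread between lists. *MAD2L1* followed with 8.98 ± 2.37 and *PLK4* with 8.19 ± 1.54 (SD, n = 2 lists each), above 6.92% and 3.13% of those genes. The means of *MAD2L1* and *PLK4* also differed by less than this spread. The median of the 7 means was 11.9, against 14.2 over all 7327 genes. Fold enrichment was higher in replicate 1 at 5 of the 7 genes and at 80.2% of all genes, with *PLK2* and *TTK* as the exceptions. At *AURKA* even the lower list exceeded every other gene of the 10 in either list.

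**Figure D3:**
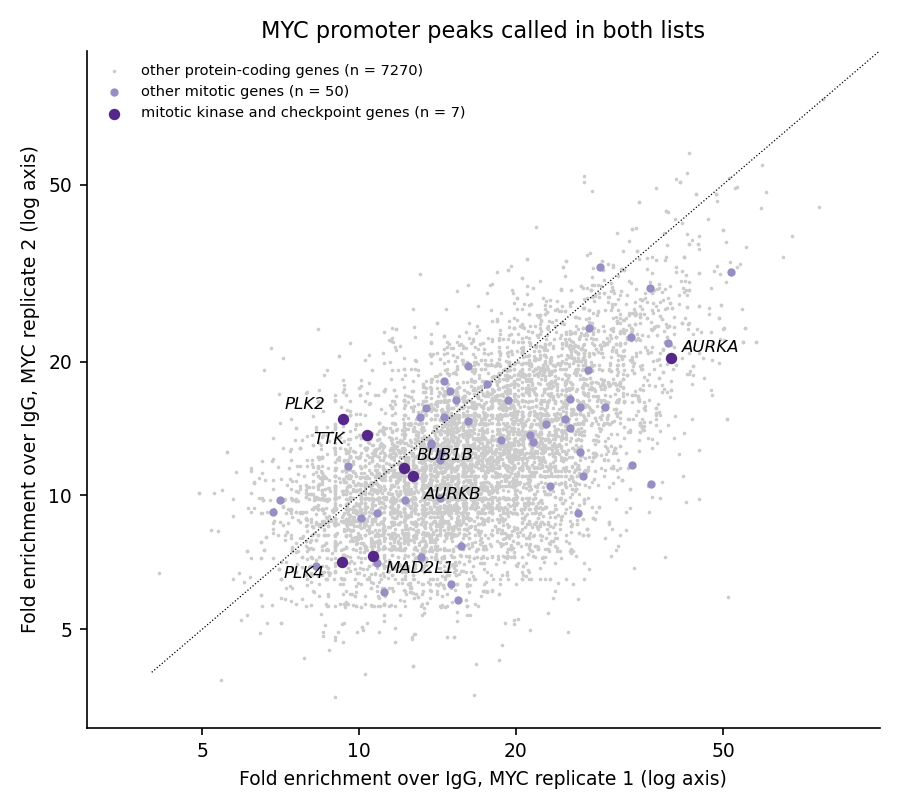
Fold enrichment over IgG of the MYC promoter peak in replicate 1 (x) and replicate 2 (y), both on log axes, for the 7327 protein-coding genes with a peak in both lists, with 7 of the 10 genes named and the dotted line marking equal values. *AURKA* lies near the upper end at 39.8 and 20.4, the other 6 lie between 7.09 and 14.8, and *PLK2* and *TTK* are above the line.

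MYC and HSF1 peaks of the same replicate number overlapped in both replicates at *PLK2* alone of the 10 genes, against 4.2% of all protein-coding genes. The HSF1 peaks behind these overlaps differed: that of replicate 1 and the proximal one of replicate 2 were 256 bp apart. The distal HSF1 peak of replicate 2 shared 177 bp with that of replicate 1 but overlapped no MYC peak. Over any pair of lists, MYC and HSF1 peaks overlapped at *PLK2* and *AURKA*, 2 of 10, against 16.8% of all genes. With all lists at 1e-10, *AURKA* and *PLK2* kept their HSF1 peaks of replicate 1 and no gene had an HSF1 peak in both lists. The HSF1 peaks of *PLK2* in replicate 2 had −log10 p-values of 4.46 and 5.94, and that of *BUB1B* 5.81, near the limit at which HSF1 peaks were called.

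Sequence motifs were searched on both strands in the RefSeq promoters of GRCh38.p14, 250 bases before to 50 after the start site, which matched 8 of the 10 genes. *AURKA* and *TTK* were not matched. The RefSeq start site of *AURKB* lies 326 bp from that of MANE Select. A match is a stretch of letters and not a binding site. CACGTG was found at 1 gene, *PLK1*, and in 8.34% of the 22199 protein-coding promoters. CACGCG was found at *PLK2* and in 14.3% of them, and CATGTG at no gene and in 8.93%. None of the other matched promoters held any of the MYC motifs in this window, including those of *AURKB*, *PLK4*, *MAD2L1* and *BUB1B* with MYC peaks in both lists.

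The letters of the CHR, TTTGAA or TTCGAA on either strand, were found at 5 of the 8 genes in these windows. The share of all promoters with either was not counted. TTTGAA was found at *PLK1*, *PLK4*, *BUB1B* and *MAD2L1*, 4 of 8, and in 12.4% of protein-coding promoters, and TTCGAA at *BUB1* and in 1.54%. The match at *BUB1B* began 23 bp before the RefSeq start site. Counted with the start site as base 1, the match at *BUB1* began on base 2, at *MAD2L1* on base 25 and at *PLK4* on base 39. At *AURKB*, whose RefSeq window does not reach the bases before the MANE Select start site, TTTGAA lay 39 bp upstream of that site and CCAAT 61 bp, 94 bp and 130 bp upstream, all inside both MYC peaks. CCAAT was found at *PLK1*, *AURKB*, *NEK2*, *BUB1* and *MAD2L1*, 5 of 8, and in 34.7%. At *NEK2* it occurred at 66 bp and 34 bp upstream, and at *BUB1* at 79 bp and 54 bp, so *NEK2* held the paired CCAAT boxes without any MYC peak. The median GC content was 61.5% over the 8 promoters and 62.3% over all protein-coding ones.

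Around the summits of the 8 matched genes, *PLK1* was the 1 gene with CACGTG within 100 bp and *PLK2* the 1 with CACGCG. The peaks of *AURKA* and *TTK* were not searched, so nothing is known here of their motifs. At *PLK1* the E-box was 77 bp from the MYC summit of replicate 1, and CACGTG lay within 100 bp of the summit in 7.51% of the 9894 promoter peaks of that list and in 6.46% of the 7323 of replicate 2. At *BUB1B* an E-box was inside both MYC peaks, 369 bp past the start site and 188 bp and 303 bp from the summits. At *PLK2* the CACGCG stood 95 bp from the MYC summit of replicate 2 and 544 bp from that of replicate 1, inside both peaks. The MYC peaks of *MAD2L1* held CACGCG and CATGTG and no CACGTG. At *AURKB* a CCAAT box coincided with the MYC summit of replicate 1 and was 18 bp from that of replicate 2.

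The heat shock element shown for *PLK2*, a 13-bp run of 3 GAA units that alternate in direction, was at chr5:58460926-58460938 on the minus strand, 64 bp from the HSF1 summit of replicate 1. It lay inside that peak, 16 bp short of the distal HSF1 peak of replicate 2, and 85 bp and 115 bp beyond the MYC peaks. Such an element was found within 100 bp of the summit in 4.43% of the 1150 promoter peaks of HSF1 replicate 1 and 2.45% of the 979 of replicate 2. The shorter motif GAANNTTC is contained in it and is the same match. In the 300-base promoters neither was found at the 8 genes, against 5.67% of protein-coding promoters for GAANNTTC and 0.405% for the element, and the element of *PLK2* lies farther upstream than that window reaches. The HSF1 peak of *BUB1B* held neither near its summit. Peak-wide positions were looked up after the peaks had been seen.

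The rest of the mitotic machinery was read from a list of 74 further genes, all of which matched the annotation. At their promoters MYC had a peak in both lists at 50 (67.6%), in replicate 1 only at 15 (20.3%), in replicate 2 only at 1, the histone kinase gene *HASPIN*, and in neither at 8 (10.8%). For the 10 genes the corresponding counts were 7, 2, 0 and 1. Over all protein-coding genes the shares were 36.6%, 14.3%, 1.17% and 47.9%. The anaphase promoting complex, the ubiquitin ligase that the checkpoint holds back, with its activators and regulators had MYC peaks in both lists at 16 of 18 genes, and other checkpoint genes at 7 of 9. Motor and midzone genes of the spindle followed with 8 of 11, kinases and their regulators with 9 of 17, and outer kinetochore genes, whose products bind microtubules, with 6 of 12. The chromosomal passenger complex, the partners of Aurora B, had 2 of 3 and the separase and cohesin protection genes 2 of 4. Differences between these roles were not tested, and neighboring genes that may share a peak with them were not looked up. The 8 genes without a MYC promoter peak were *AURKC*, *PLK5*, *VRK1*, *MAD2L1BP*, *NSL1*, *NUF2*, *SPC25* and *ZWINT*, a set named here after its values were seen.

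**Figure D4:**
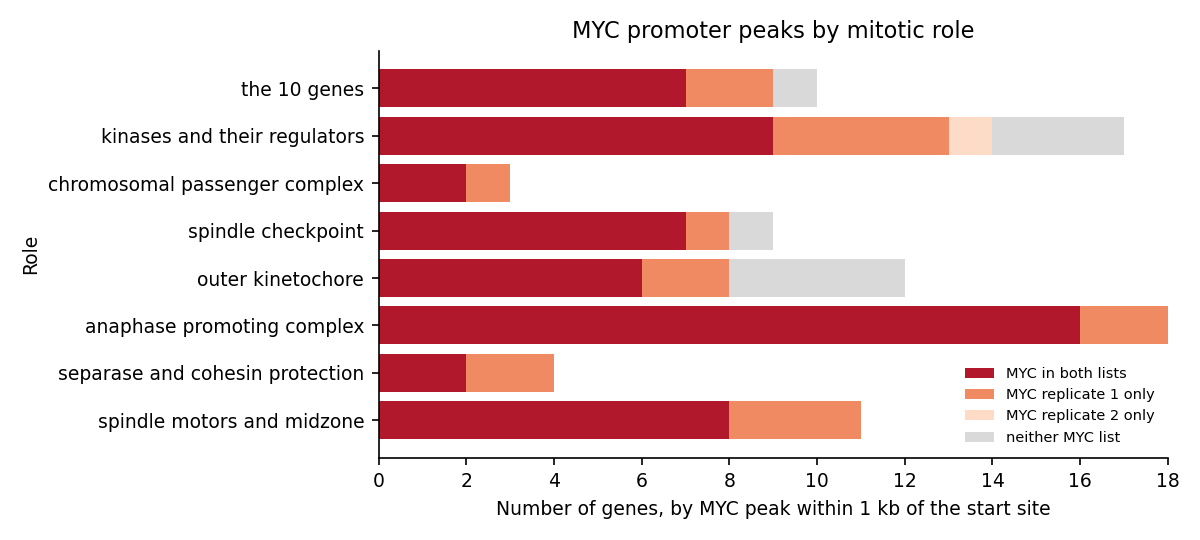
Number of genes by MYC peak within 1 kb of the start site, for the 10 genes (top bar) and for the 74 further mitotic genes by role. Dark red counts genes with a peak in both MYC lists, 7 of 10 at the top and 16 of 18 for the anaphase promoting complex, and grey counts those in neither list. Over all protein-coding genes, 36.6% had a peak in both MYC lists and 47.9% in neither.

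The mean MYC fold enrichment was highest at *PLK3*, a polo-like kinase gene outside the 10, with 51.9 and 31.8 in the replicates. *FBXO5*, which encodes the inhibitor EMI1 of the anaphase promoting complex, had 36.2 and 29.3. The subunit genes *ANAPC10* and *ANAPC15* had 29.1 and 32.7, and 39.2 and 22. *ABCE1* had the same values as *ANAPC10* in both MYC lists and in HSF1 replicate 2, so these peaks may not belong to *ANAPC10* alone. Neighboring genes were looked up only for the peaks of the 10 genes. *WEE1*, the kinase that delays mitotic entry, had 33.3 and 22.7. *AURKA*, with 39.8 and 20.4, fell among these. The median of the means was 16.2 over the 50 genes, above the 11.9 of the 7.

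HSF1 had a promoter peak in both lists at 3 of the 74 genes (4.05%), against 2.59% of all protein-coding genes. In at least 1 list it had one at 12 (16.2%), against 9.42%. The 3 were *ANAPC15*, with fold enrichments of 4.81 and 4.86, *PTTG1*, the gene of the separase inhibitor securin, with 4.81 and 4.60, and *KNTC1*, a gene of the kinetochore complex that brings dynein and the checkpoint proteins, with 10.6 and 17.1. All 3 had MYC promoter peaks in both lists as well, and the share of all genes with promoter peaks in all 4 lists was not counted. The HSF1 values at *ANAPC15* and *PTTG1* were in the range of those at *PLK2* and *BUB1B*, and that at *KNTC1* in replicate 1, 10.6, was near the 11.2 of *AURKA* in the same list.

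**Figure D5:**
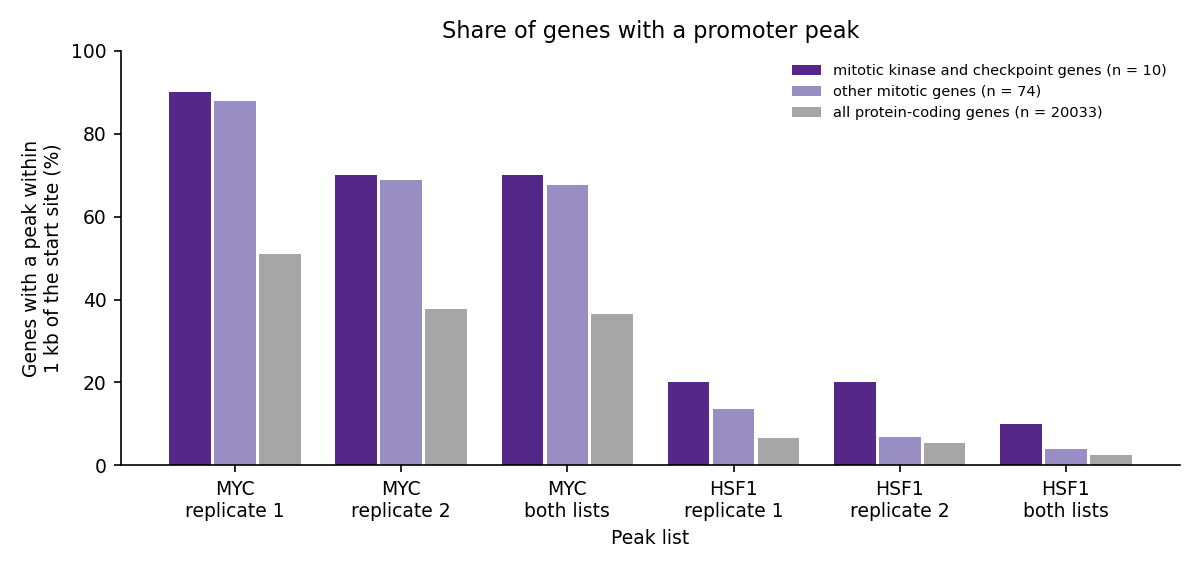
Share of genes (%) with a peak within 1 kb of the start site in each list and in both lists of a factor, for the 10 genes, the 74 further mitotic genes and all 20033 protein-coding genes. For MYC in both lists the bars are at 70%, 67.6% and 36.6%, and for HSF1 in both lists at 10%, 4.05% and 2.59%, the first being 1 gene.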

How the data were processed

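Reads of the CUT&RUN libraries were trimmed by the authors, aligned to GRCh38/hg38 with Bowtie 2 and used to call peaks with MACS 2.2.9.1 for each library separately against the IgG library. In MACS, duplicate fragments were reduced to 1 copy and the larger of each pair of libraries was scaled down. Per the file headers, the control was IgG replicate 2, whereas the labels list a single IgG control. The values the authors deposited with a peak are its fold enrichment (a ratio to background), its pileup (the signal at its summit) and its −log10 p-value; the −log10 q-value column was not used. No read counts per region were used.

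Genes, start sites and exons were taken from GENCODE 44 and promoter sequences from RefSeq. A peak was assigned to a gene window by an overlap of at least 1 bp. Differences between factors were tested by the exact permutation test (scipy 1.17.1, two-sided, threshold 0.05), and the other results are counts beside those of all protein-coding genes. Tables were handled with pandas 2.3.3 and numpy 2.4.6 in Python 3.11.15 and figures drawn with matplotlib 3.10.9. The window and motif steps were tested on simulated data. Named genes are the 10 genes, the further mitotic genes with HSF1 promoter peaks in both lists and the 5 with the highest mean MYC fold enrichment. For the peaks of the 10 genes, genes whose start site was nearer to the midpoint of the peak were named too. For this, each gene had 1 start site, that of MANE Select or else its 5′ end. *HASPIN*, *NEK2-DT*, *ABCE1* and the 8 further genes without a MYC promoter peak were named after their values were seen. The genes and lists were chosen with earlier results of these data known. Replicates were not paired by the labels beyond a shared number.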

Additional observations from a re-analysis of the deposited data

How the results depend on the processing

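The 7 genes with a MYC peak in both lists stayed at 7 under each threshold and window tried, with a range of 7 to 9 when 1 MYC list was left out and 9 for a peak in either list. Without MYC replicate 2, *PLK1* and *BUB1* would be counted. The HSF1 count of 1 gene in both lists was less stable. It was 0 at 1e-10 and at 1e-20, and 2 with either HSF1 list left out. A peak in either list gave 3 genes, against 21.1% of all genes. At promoters the count in both lists was 0 within 500 bp. The count of genes with overlapping MYC and HSF1 peaks, 1, became 0 at 1e-10, at 1e-20 and where 50% of the shorter peak had to be shared, 2 for any pair of lists, and 1 to 2 with 1 list left out. The difference of 6 genes between the factors kept its direction, at 7 with all lists at 1e-10, 7.5 at 1e-20 and 5 to 7 with 1 list left out. Shares of all genes were not counted at these thresholds. With the replicate number as a block the difference was 6 and the exact sign-flip p 0.5, the smallest that 2 pairs allow. Within 100 bp of summits in place of promoters, TTTGAA was found at 1 gene in place of 4 and TTCGAA at 2 in place of 1. GAANNTTC and the heat shock element were found at 1 in place of 0. The promoter and summit windows cover different bases. Of the 7 ranks by MYC height, *AURKA* kept the first in each list and by pileup, and the ranks of the others moved under at least 1 of these. For the 74 further genes, 50 became 55 over the whole gene window and 51 to 65 with 1 MYC list left out, alternatives chosen after seeing the data. Over all protein-coding genes, 36.6% became 45.4% and 37.7% to 50.9% under these alternatives. With 2 lists a factor, no difference here could pass 0.05.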
